A study of Mus musculus with 7 samples.

Results

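The libraries titled WT2 and pKO2 were set against those titled WT1 and pKO1. These are 4 of the 7 libraries of the series, 2 on each side. The pairing was chosen by measured values, since earlier results of these data had shown the WT pair and the pKO pair to differ partly in the same genes. Fold differences between the sides are therefore given as descriptions, and no test of them is used as support. All libraries hold polyadenylated RNA of embryoid bodies, balls of differentiating stem cells grown in suspension, here from the mouse stem cell line R1 and collected on day 4. Feeder cells had been removed, and hanging drops of 27 µl were started with 500 cells each in a serum medium lacking Lif, the cytokine that keeps mouse stem cells undifferentiated. By title, WT1 and WT2 are wild type, pKO1 and pKO2 lack the promoter of the long noncoding RNA gene Meteor, pInv carries that promoter inverted, Ctrl received an empty vector, and KD a CRISPR knockdown of Meteor. The knockdown is named dCas9 in the sample field and Cas9 in the design text. The genotype field contradicts several titles: it gives the promoter knockout for WT1 and WT2, the inversion for pKO1, and wild type for pKO2 and pInv. Groups follow the titles. Under the genotype field the WT pair would still lie within 1 genotype, while the pKO pair would lie between 2. The labels do not say whether a number marks a culture, a clone, a day or a library preparation, so none of these can be told apart here. They also leave unsaid if 2 libraries of one title group stem from different cultures.

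The primitive streak is the site where cells of the epiblast, the pluripotent layer of the early embryo, turn into mesoderm and endoderm. In embryoid bodies a comparable step is marked by the T-box factors T (Brachyury) and Eomes, by homeobox genes such as Mixl1, Lhx1 and Gsc, and by Mesp1, the regulator of the first mesoderm. How far a set of bodies has gone through it on a given day is known to vary between cultures.

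WT2 was the shallowest of the 4 libraries with 1898350 expected counts, and WT1 the deepest with 2564478. The total was smaller in WT2 than in WT1, and larger in pKO2 than in pKO1. The 45S ribosomal RNA precursor took 17.4% and 24.1% of the counts of WT1 and WT2, and 21.3% and 19.1% of those of pKO1 and pKO2, so its share also went opposite ways in the pairs. Levels are given as CPM, counts scaled to library size with TMM factors. A count of 0 allows up to 1.12 CPM (WT1), 1.80 (WT2), 1.43 (pKO1) or 1.23 (pKO2). Markers of other cells were low: the 3 tested genes of 18 feeder fibroblast markers summed to 15.0 to 18.1 CPM in the 4 libraries, and the 7 tested of 12 macrophage markers to 1.64 to 3.0 CPM, with Csf1r, Adgre1 and Cd14 at 0 counts in all 4. The macrophage sum was 358 CPM in KD, which is used below for levels only. The transcript of Meteor was not matched to a feature, so its level could not be used to check the titles.

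The pairs were compared over the 4657 features with a mean of at least 20 CPM in the 4 libraries. Going from library 1 to library 2, 450 of them were at least 2-fold lower in the WT pair (9.66%) and 199 at least 2-fold higher (4.27%). In the pKO pair 134 were lower (2.88%) and 29 higher (0.623%). Both pairs shared 102 lower features (2.19% of all) and 2 higher ones (0.0429%). Across these features the log2 differences of the pairs had a Pearson correlation of 0.478 and a Spearman correlation of 0.460, with no p because genes are not replicates and the pairing was chosen on this. The SD of the log2 differences was 0.75 in the WT pair and 0.54 in the pKO pair.

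**Figure D1:**
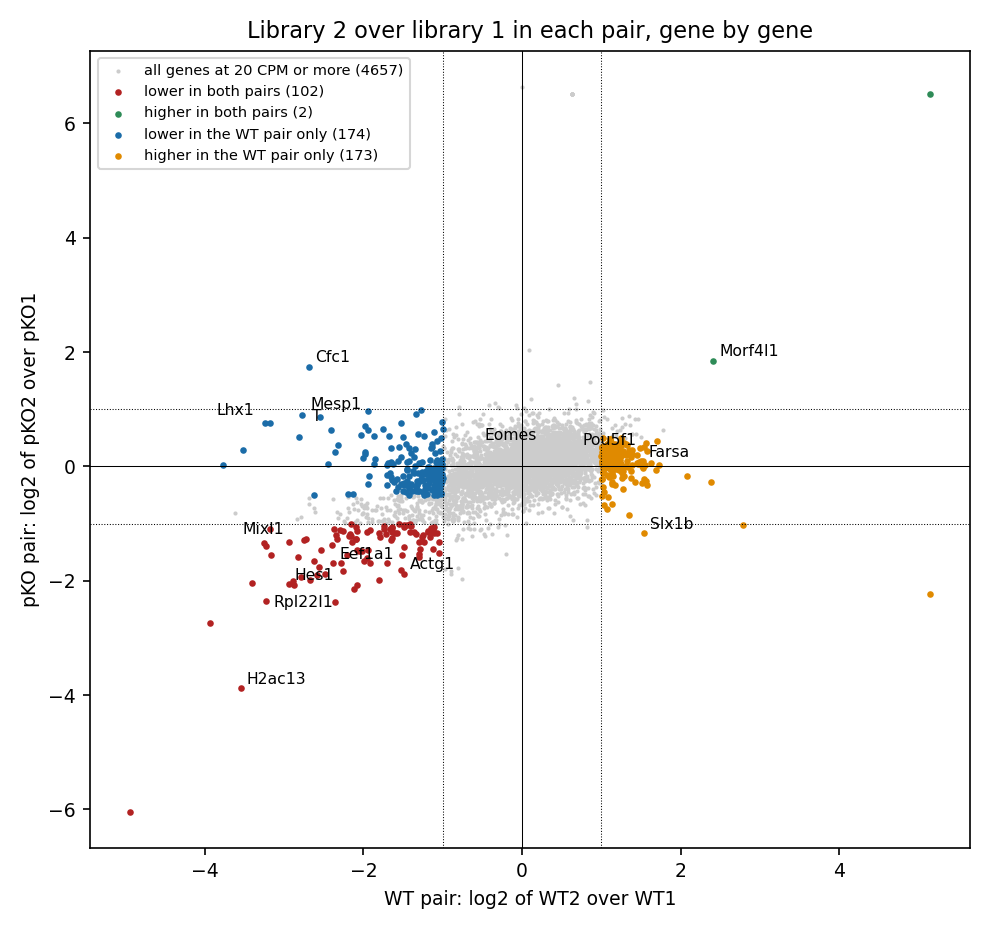
Log2 ratio of library 2 to library 1 for each of the 4657 features at 20 CPM or more, with the WT pair on the x axis and the pKO pair on the y axis; dotted lines mark 2-fold. The 102 features lower in both pairs fill the lower left, the 174 lower in the WT pair only lie to the left of the centre with T, Lhx1 and Mesp1 among them, and the few points past 6 on the y axis are near-identical copies of 4.5S RNA and other features that share reads.

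The features lower in both numbered-2 libraries had a median level of 36.7 CPM over the 4 libraries, against 52.4 for all features at 20 CPM or more. That level includes both numbered-2 libraries, where the class is lower by rule, so a lower median follows in part from the choice. Eef1a1, the elongation factor that brings aminoacyl-tRNA to the ribosome, stood at 4621 CPM in WT1 and 887 in WT2, and at 5370.0 in pKO1 and 1663 in pKO2. The other 3 libraries held 3452 (pInv), 4895 (Ctrl) and 6093 CPM (KD) of it, so both numbered-2 libraries lay below all other 5. Its log2 difference was −2.38 in the WT pair and −1.69 in the pKO pair. The exact 95% counting interval of the ratio ran from 0.182 to 0.202 and from 0.299 to 0.321. Such intervals cover counting error only. The helicase of translation initiation Eif4a1 was at 869 and 208 CPM in the WT pair and at 929 and 335 in the pKO pair. The peroxide-reducing enzyme Prdx1 was at 1410 and 278 CPM in the WT pair and at 1491 and 620.4 in the pKO pair. Actg1, cytoplasmic gamma-actin, was at 803 and 286 CPM in the WT pair and at 1105 and 301 in the pKO pair. For each of these 3 genes, as for Eef1a1, pInv, Ctrl and KD lay above both numbered-2 libraries.

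The named genes with the largest shared difference were lower by about the same amount in both pairs or by more in the WT pair. H2ac13, a core histone gene of a cluster of near-identical copies, was at 178 CPM in WT1 and 14.4 in WT2, and at 103 in pKO1 and 6.16 in pKO2. The mitochondrial ribosomal protein gene Mrpl53 was at 34.5 and 6.0 CPM in the WT pair and at 37.7 and 6.57 in the pKO pair. Tomm22, a receptor of the mitochondrial import pore, was at 47.2 and 10.2 CPM and at 57.8 and 12.3. These 3 differed about equally in both pairs. Rpl39, a ribosomal protein gene, was at 580 and 78.0 CPM in the WT pair and at 680 and 161 in the pKO pair. Rpl22l1, a ribosomal protein paralog gene, was at 86.6 and 8.40 CPM and at 91.7 and 17.2. Hes1, the transcriptional repressor downstream of Notch, was at 33.7 and 3.60 CPM and at 38.7 and 8.62. Exosc7 of the RNA exosome was at 40.5 and 3.0 CPM and at 40.1 and 9.03, and Med10 of the Mediator complex at 36.7 and 4.2 and at 42.0 and 9.85. For Rpl39, Rpl22l1, Hes1, Exosc7 and Med10 the WT difference was the larger one, by 0.81 to 1.36 on the log2 scale. Tmem63b, a membrane channel gene, had log2 differences of −2.08 and −2.07. The feature named Mir703 had −3.93 and −2.74, and its reads come from polyadenylated RNA over that gene, not from the mature miRNA. Only 1 gene with a RefSeq match was at least 2-fold higher in both pairs: Morf4l1, a chromatin reader, was at 11.2 and 63.6 CPM in the WT pair and at 10.0 and 38.6 in the pKO pair, against 12.7, 4.06 and 11.5 in pInv, Ctrl and KD.

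**Figure D2:**
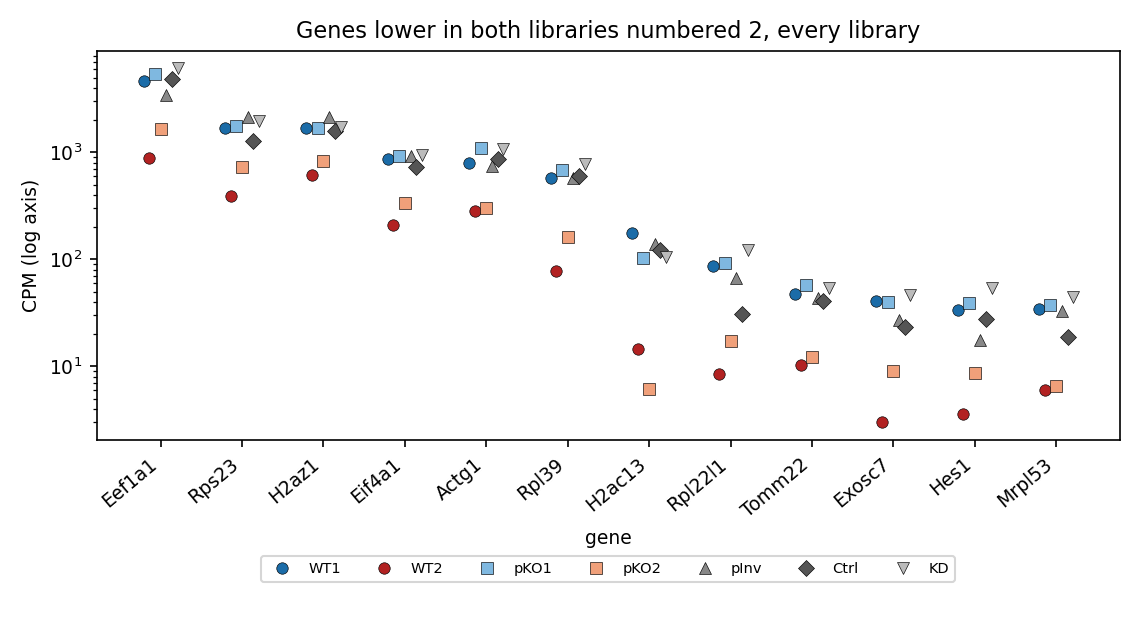
CPM on a log axis of 12 genes that were lower in both numbered-2 libraries, 1 point per library. WT2 and pKO2 lie below the other 5 libraries for all 12, including Eef1a1 at 887 and 1663 CPM and Hes1 at 3.60 and 8.62 CPM.

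At the threshold the class had no gap. Just inside it were Rps2 (log2 −1.41 and −1.01), 2310009B15Rik (−2.16 and −1.01) and Rnpep (−1.56 and −1.01). Just outside were Arpc3 (−1.53 and −0.995) and Fastk (−2.24 and −0.99).

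Within gene families some members were lower in both pairs and others were not. Of the 76 tested cytosolic ribosomal protein genes, 14 were at least 2-fold lower in the WT pair and 6 in both: Rps23, Rps2, Rpl39, Rps9, Rpl7a and Rps15a. Rps23 was at 1675 and 391 CPM in the WT pair and at 1771 and 737 in the pKO pair, while Rplp1 was at 6576 and 8205 and at 6913 and 7118. The list's median log2 difference was −0.20 in the WT pair and −0.08 in the pKO pair, against −0.02 and 0.00 over all 10265 tested genes. Of 54 oxidative phosphorylation genes, with medians of −0.23 and −0.12, 12 were lower in the WT pair and 4 in both: Cox7b, Atp5j, Atp5g2 and Ndufa4. Ndufa4, a small subunit of the respiratory chain, was at 34.1 and 3.0 CPM in the WT pair and at 36.8 and 11.9 in the pKO pair. Uqcrh, another subunit gene, was at 575 and 720.3 CPM and at 571 and 688. The 23 genes of the actin, tubulin and ubiquitin list had medians of −0.61 and −0.32, further from those of all genes. Of these, 5 were lower in the WT pair and 4 in the pKO pair. In this list Actg1, Ubb and Tmsb4x were lower in both pairs, and Actb, the close relative of Actg1, was not. Actb was at 3929 and 5563 CPM in the WT pair and at 4811 and 6364 in the pKO pair. Ubb, a ubiquitin precursor below the level minimum of the class, was at 31.1 and 3.60 CPM and at 37.7 and 2.05. Of the elongation factors Eef1a1 was the 1 of 11 that was lower in both pairs, and Eef2 was at 2429 and 3928 CPM in the WT pair and at 2229 and 2825 in the pKO pair. Of 30 initiation factors, Eif4a1 and Eif1 were lower in both. Among 15 tested histone genes the variant H2az1 was at 1677 and 614 CPM and at 1701 and 839, while H3f3b was at 1019 and 1302 and at 863 and 992. Other lists held single members of the class. Cct4, a subunit of the chaperonin that folds actin and tubulin, was at 195 and 88.8 CPM in the WT pair and at 209 and 98.5 in the pKO pair. Hnrnpl, a splicing regulator, was at 73.8 and 10.8 CPM and at 79.3 and 19.3. Ftl1, the ferritin light chain gene, whose end is largely shared with other genes, was at 102 and 33.6 CPM and at 111 and 49.2. Background over all tested genes was 14.4% lower in the WT pair, 6.32% in the pKO pair and 3.16% in both.

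The shared genes had short transcripts, a property that the choice did not use. For 91 of the 102 a protein-coding transcript could be matched by symbol in GENCODE M21. The median length of the longest one was 1906 bases, against 3207 over the 4374 matched genes at 20 CPM or more. Transcripts under 1500 bases made up 39.6% of the class and 15.6% of all. The share of genes that belonged to the class was 6.2% for transcripts up to 1000 bases and 1.26% for those over 5000. The last 100 bases had a median GC content of 32% in the class and 36% in all genes. Of the 91, 24.2% shared at least 1 exact stretch of 36 bases of their last 300 with a transcript of another gene, against 11.8% of all. The stretch covered 84.5% of that end for Rps2, 83.0% for Rpl7a, 100% for Mrpl53, 65.3% for Rpl22l1, 31.7% for Rpl39 and 27.5% for Eef1a1, and it was absent for Actg1, Eif4a1, Tomm22, Hes1, Exosc7 and Med10. Reads of the former genes can be split among copies by the count estimate, so their levels are uncertain. The part of length, base content and shared ends in the difference was not tested.

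The other 3 libraries lay on the side of the numbered-1 libraries. Over the 102 features, 101 were above both numbered-2 libraries in pInv, 99 in Ctrl and 101 in KD. By distance on the log2 scale, 97.1% of them lay nearer the numbered-1 mean in pInv, 87.3% in Ctrl and 98.0% in KD, against 63.1%, 65.0% and 73.7% of all features. The class is low in both numbered-2 libraries by rule, so the side on which other libraries lie follows in part from the choice. The shares over all features were not chosen that way and are not a matched baseline. KD was above Ctrl for 82.4% of the class, for 74.7% of the features lower in the WT pair only, and for 43.7% of all features. The median KD to Ctrl log2 difference was 0.41, 0.28 and −0.05 in these sets. Ctrl and KD carry no number and were not used in choosing the genes, but with 1 library each the difference has no replicate check.

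Many streak, mesoderm and endoderm genes were lower in the WT pair only, while pKO2 mostly held as much as pKO1 or more. By any amount, pKO2 was below pKO1 for 7 of 19 tested streak, 1 of 12 nascent and paraxial mesoderm and 4 of 16 definitive endoderm genes. Of all tested genes, 49.4% were lower in pKO2 than in pKO1. The class apart in the WT pair only had 174 features lower (3.74%) and 173 higher (3.71%). Here only means that the other pair was within 0.5 on the log2 scale or on the opposite side. T stood at 294 CPM in WT1 and 54.6 in WT2, and at 226 in pKO1 and 353 in pKO2. It was at 178 in pInv, 340.1 in Ctrl and 358 in KD, so WT2 was the lowest of the 7 libraries and pKO2 among the highest. Its log2 difference was −2.41 in the WT pair and 0.64 in the pKO pair. Lhx1, a homeobox factor of the anterior streak, stood at 531 and 58.2 CPM in the WT pair, at 521 and 884 in the pKO pair, and at 258, 492 and 1138 in pInv, Ctrl and KD. Mesp1 stood at 79.1 and 10.8 CPM in the WT pair, at 67.8 and 127 in the pKO pair, and at 82.3, 71.6 and 243 in the others. Gsc, the homeobox gene of the organizer, stood at 62.6 and 18 CPM in the WT pair, at 42.0 and 66.9 in the pKO pair, and at 30.1, 50.8 and 44.8. For all 4 genes WT2 was the lowest library, below WT1 and pKO1 and pKO2 alike, and the pKO pair pointed the other way. In bulk libraries fewer cells of a type and less RNA per cell cannot be told apart.

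Several genes of secreted or surface proteins were also lower in WT2 and higher in pKO2. Cer1, which binds and blocks Nodal, was at 58.8 and 5.40 CPM in the WT pair and at 57.8 and 98.9 in the pKO pair, with 13.6 in pInv. Frzb, a secreted Wnt antagonist, was at 93.7 and 12.6 CPM and at 82.6 and 119. Cfc1, a coreceptor of Nodal ligands, was at 28.1 and 3.60 CPM and at 16.7 and 58.3, which put it past 2-fold in opposite directions in the pairs. The mesenchymal cadherin Cdh2 was at 94.8 and 23.4 CPM and at 89.3 and 146, and the matrix protein gene Fn1 at 125 and 31.8 and at 173 and 270. Pcdh7, a protocadherin, was at 43.1 and 6.6 CPM and at 33.0 and 61.1. Each of these 6 was lower in WT2 than in WT1 and higher in pKO2 than in pKO1. The named genes Tfap2c, Grb10 and Gm4737 had pKO differences between 0.03 and 0.28 on the log2 scale and WT differences between −3.77 and −2.44. Tfap2c, an AP-2 transcription factor, was at 36 and 1.80 CPM in the WT pair, the latter equal to the floor of WT2, and at 24.8 and 25.4 in the pKO pair. Foxa2, the endoderm and node factor, was at 311 and 84.6 CPM in the WT pair and at 198 and 204 in the pKO pair.

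**Figure D3:**
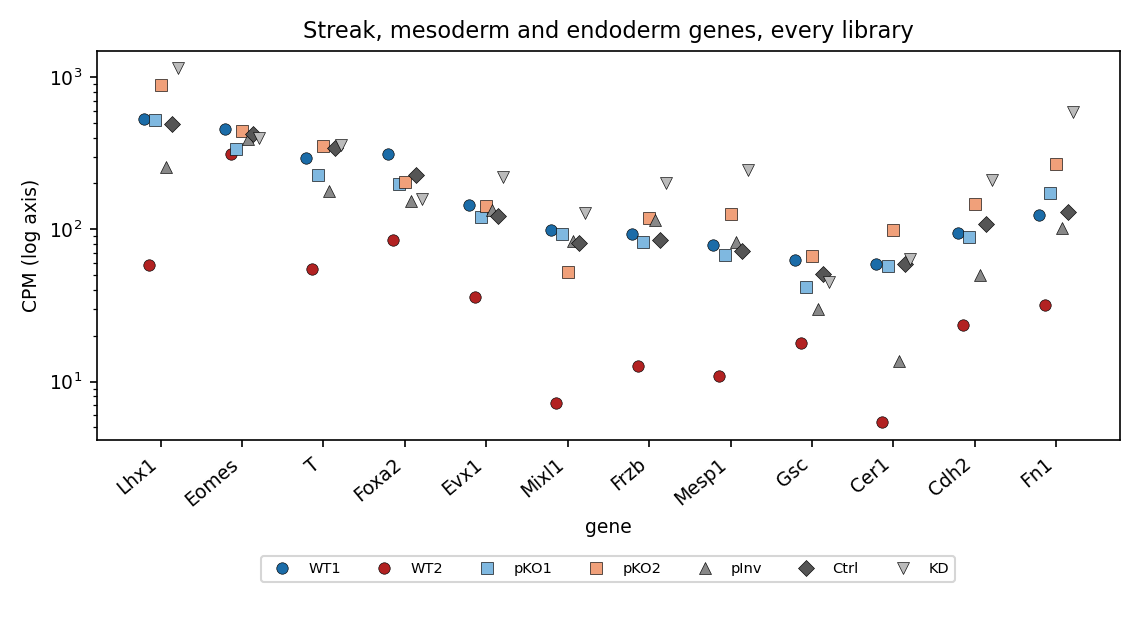
CPM on a log axis of 12 genes of the streak, mesoderm and endoderm, 1 point per library. WT2 is the lowest library for each of them, by the smallest margin for Eomes (312 CPM against 337 in pKO1), while pKO2 lies at or above pKO1 for all but Mixl1.

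Not every streak gene followed. Eomes was at 459 and 312 CPM in the WT pair and at 337 and 445 in the pKO pair, a log2 difference of −0.55 in the WT pair and 0.40 in the pKO pair, and so stayed within 2-fold in both. Mixl1 was at 99 and 7.20 CPM in the WT pair and at 92.7 and 52.1 in the pKO pair, lower in both with log2 differences of −3.62 and −0.82. Fgf8, a streak ligand, was past 2-fold in both pairs, at 59.6 and 18.6 CPM and at 57.3 and 27.1. Tdgf1, a coreceptor of Nodal, was at 274 and 70.2 CPM and at 263 and 158. The ligand genes Nodal, Wnt3 and Wnt8a did not follow in WT: Nodal was at 67.5 and 96.6 CPM, Wnt3 at 78.3 and 72.6, and Wnt8a at 36.7 and 87.6.

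Counts over the lists of germ layer markers are read against all 10265 tested genes, of which 14.4% were at least 2-fold lower and 6.84% higher in the WT pair, and 6.32% lower and 3.47% higher in the pKO pair. Of the 19 tested of 24 primitive streak genes, 12 were at least 2-fold lower in the WT pair and 2 higher, and 1 was lower and none higher in the pKO pair. The median log2 difference was −1.75 in the WT pair and 0.07 in the pKO pair. WT2 was the lowest of the 7 libraries for 14 of the 19, against 28.2% of all tested genes. Of 12 tested genes of nascent and paraxial mesoderm, 10 were lower in the WT pair, and 3 were higher and none lower in the pKO pair, with medians of −1.86 and 0.58. Of 16 definitive endoderm genes, 10 were lower in the WT pair and 1 in the pKO pair, with medians of −1.80 and 0.33. Only 4 lateral plate and vascular genes were tested, with medians of −1.64 and 0.34, and the receptor Kdr was at 18 and 6.6 CPM and at 20.5 and 39.8. Across all tested genes the medians were −0.02 and 0.00. Several of these genes were known to differ when the lists were drawn up, so the lists are not independent of the values. The lists overlap: Lhx1, Foxa2, Cer1, Mesp1, Cdh2 and Eomes are each in 2 or more.

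Lists of the stages before and beside the streak had medians nearer to 0, while single members such as Nanog did not. Pou5f1, the pluripotency factor still expressed in the epiblast, was at 1359 and 2188 CPM in the WT pair and at 1399 and 1721 in the pKO pair. Sox2 was at 88.1 and 101 CPM and at 101 and 96.0, with counting intervals of both ratios that include 1. Nanog, below the level minimum with a mean of 18.7 CPM, was lower in both pairs, at 33.7 and 7.8 CPM and at 22.9 and 10.3, with log2 differences of −1.99 and −1.09. The 17 tested pluripotency genes had medians of 0.27 and 0.02, and the 17 of the post-implantation epiblast −0.43 and −0.14. Of the latter, Otx2 was at 230 and 257 CPM and at 258 and 281 (pKO1 and pKO2), Pou3f1 at 54.3 and 131 and at 80.7 and 80.8, and the DNA methyltransferase gene Dnmt3b at 1550 and 870.3 and at 1365 and 1010. Of 9 neuroectoderm genes, 4 were lower in the WT pair and none in the pKO pair, against 14.4% and 6.32% of all tested genes. Extraembryonic endoderm genes (10 tested) had none lower in either pair and 2 higher in the WT pair, against 6.84% of all tested genes. Only 3 trophoblast genes were tested, with medians of −0.83 and 0.40, and WT2 was the lowest of the 7 libraries for all 3. They include Tfap2c and Eomes, both described above, and Eomes is also in the streak list, so the trophoblast list is not separate from it. The signalling lists had medians of −0.18 and 0.08 (Nodal pathway, 16 genes), −0.29 and 0.15 (WNT, 19), −0.69 and 0.08 (BMP, 11) and 0.05 and −0.07 (FGF, 15). In the BMP list, the target genes Id1 and Id3 were at 13.5 and 2.40 CPM and at 18.7 and 2.40 in the WT pair, against 15.8 and 19.3 and 18.2 and 10.3 in the pKO pair.

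**Figure D4:**
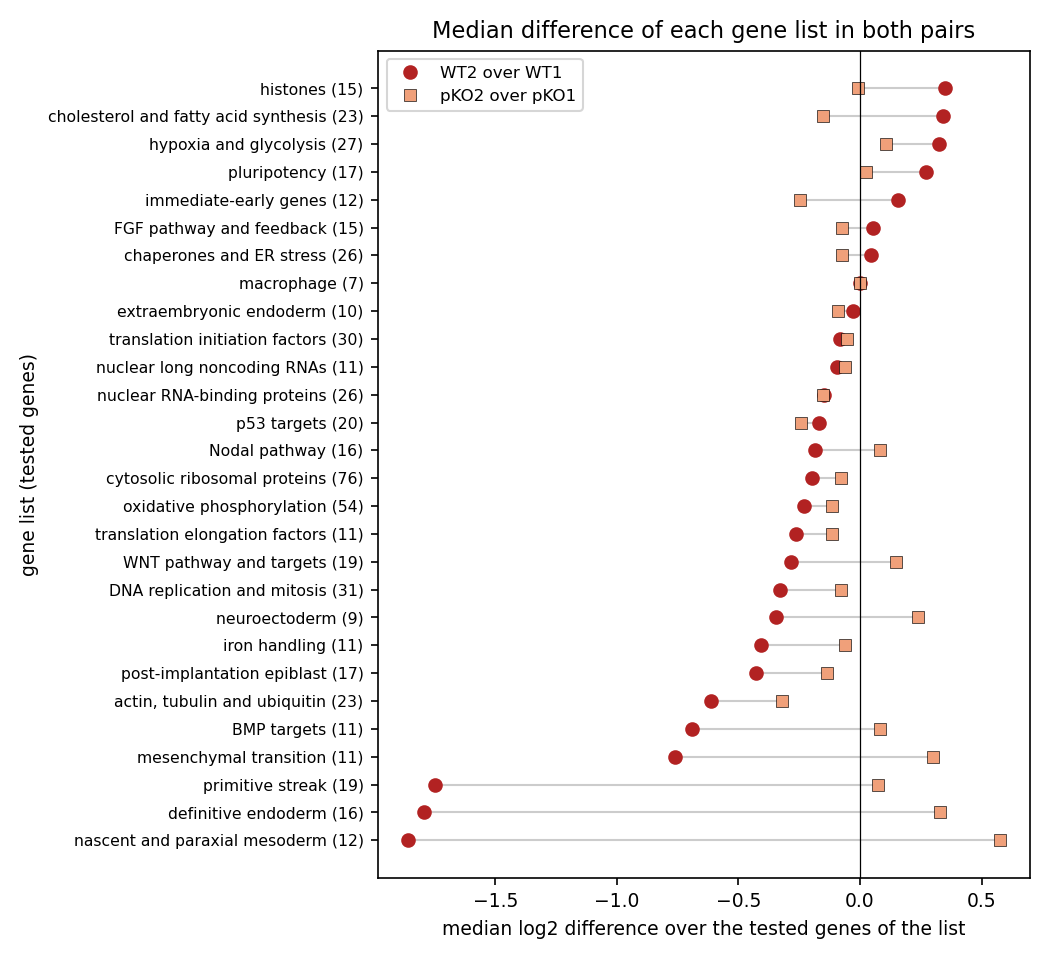
Median log2 difference of library 2 over library 1 for each gene list with 5 or more tested genes, circles for the WT pair and squares for the pKO pair; the number of tested genes stands after each name. The streak, endoderm and nascent mesoderm lists lie between −1.86 and −1.75 in the WT pair and between 0.07 and 0.58 in the pKO pair, and the ribosomal and oxidative phosphorylation lists lie between −0.23 and −0.08 in both.

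The genes higher in the WT pair only fell largely on chromosomes 8 and 11. The RefSeq table of GRCm38 placed 168 of the 173 features, and 89 of those (53%) were on chromosome 8 or 11, which carry 15.2% of the 4529 placed genes at 20 CPM or more. Of the features lower in the WT pair only, 6 of 169 placed were there (3.55%), and of those lower in both pairs 12 of 96 (12.5%). Over the 252 genes of chromosome 8 the median log2 difference of the WT pair was 0.53, a ratio of 1.44, and 80.2% were higher in WT2. Over the 435 genes of chromosome 11 it was 0.44, a ratio of 1.36, and 74.0% were higher. The other 18 chromosomes had medians from −0.27 (chromosome 6) to 0.13 (chromosome 7), with an SD of 0.0892. In the pKO pair the 20 medians ran from −0.11 (chromosome 8) to 0.10. Genes are not replicates, and each median describes 1 pair of libraries.

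**Figure D5:**
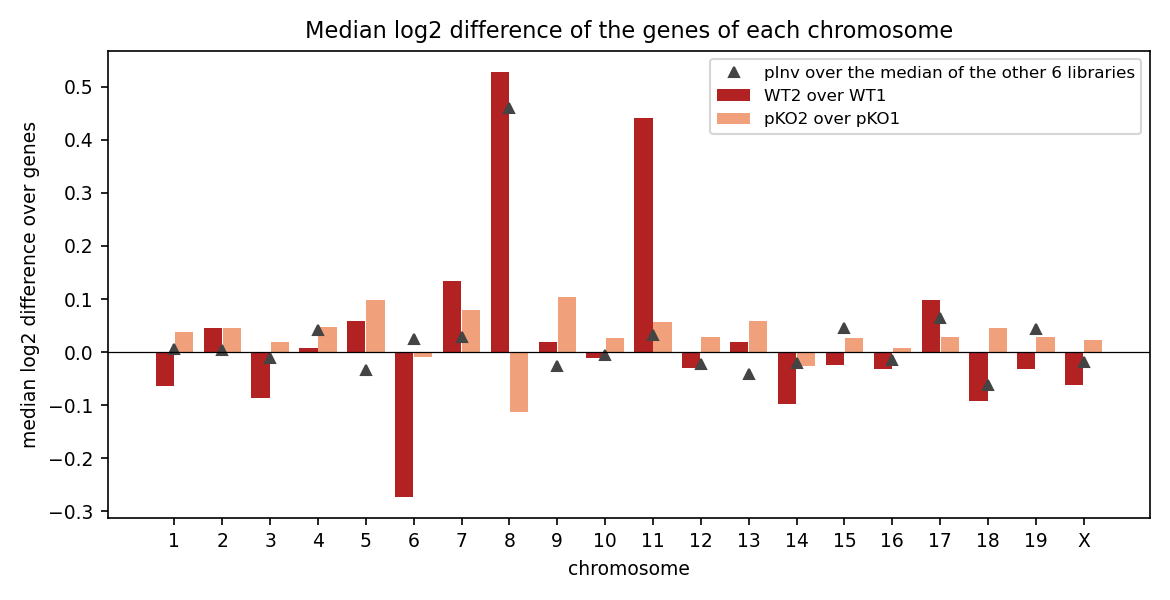
Median log2 difference over the genes of each chromosome at 20 CPM or more, bars for WT2 over WT1 and pKO2 over pKO1, triangles for pInv over the median of the other 6 libraries. In the WT pair chromosomes 8 (0.53) and 11 (0.44) stand above all others, and in pInv only chromosome 8 (0.46) does.

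The shift ran along both chromosomes. In 5 blocks of equal gene number by gene order, the WT median was 0.50 to 0.55 on chromosome 8 and 0.30 to 0.52 on chromosome 11. Measured against the median of the other 6 libraries, WT2 was 0.47 higher on chromosome 8 and 0.45 higher on chromosome 11. The library pInv was 0.46 higher on chromosome 8 and 0.03 on chromosome 11. The remaining 5 libraries lay between −0.19 and 0.06 on chromosome 8 and between −0.10 and 0.02 on chromosome 11. So WT2 stood out on both chromosomes and pInv on 1 of them. On chromosome 6 it was WT1 that lay apart, by 0.16, with WT2 at −0.08. Farsa, a subunit gene of the phenylalanine tRNA synthetase on chromosome 8, was at 424 and 1215 CPM in the WT pair, at 530 and 565 in the pKO pair, and at 1085, 472 and 489 in pInv, Ctrl and KD. Mvd, an enzyme of sterol synthesis on chromosome 8, was at 78.0 and 226 CPM in the WT pair, at 91.2 and 89.9 in the pKO pair, and at 147 in pInv. Fasn, the fatty acid synthase gene on chromosome 11, was at 404 and 1204 CPM in the WT pair, at 427 and 515 in the pKO pair, and at 595 in pInv. Npm1, a nucleolar protein gene on chromosome 11, was at 2400 and 4991 CPM, at 2480 and 2626, and at 3059 in pInv. Of the 10 named genes higher in the WT pair only, Psmb10, Jund and Chd9 lie on chromosome 8 and Ramp3, Fasn and Git1 on chromosome 11. The other four named genes are Cenpc1, a centromere protein gene at 35.6 and 189 CPM in the WT pair and 81.2 and 66.9 in the pKO pair, the neurofilament gene Nefm at 30.7 and 104 and at 31.1 and 31.6, Snora75 at 21.0 and 63.6 and at 44.9 and 37.3, and Fabp3, a fatty acid carrier, at 13.5 and 41.4 and at 17.7 and 18.1. Extra copies of chromosomes 8 and 11 are known to recur in cultured mouse embryonic stem cells. DNA was not measured here, and a part of copy number in the shift was not tested.

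Most of the named streak genes lie outside chromosomes 8 and 11. Of the named ones, T lies on chromosome 17, Mesp1 on chromosome 7, Gsc on chromosome 12, Foxa2 and Frzb on chromosome 2, Cer1 on chromosome 4, and Lhx1, lower in WT2, on chromosome 11. Without the genes of chromosomes 8 and 11, 168 features were lower and 84 higher in the WT pair only, so the near balance of 174 and 173 was not kept. The split also moved with the scaling: it was 287 lower and 121 higher with total counts without the 45S precursor, 319 and 69 with log2(TPM + 1), and 150 and 209 with TMM factors taken off chromosomes 8 and 11. Relative to the median of all genes, chromosome 8 stood 0.47 to 0.48 higher and chromosome 11 0.38 to 0.39 higher under all 5 scalings.

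The pKO pair held few genes of its own: 14 features were lower (0.301%) and 14 higher (0.301%) in it alone. Hspb6, a small heat shock protein gene, was at 7.64 CPM in pKO1 and 34.1 in pKO2, against 24.7 and 26.4 in WT1 and WT2. Among these 4 libraries pKO1 was the one apart, while KD was also low at 11.5 CPM, with 23.8 in pInv and 20.8 in Ctrl. Ahdc1 was at 34.9 CPM in pKO1 and 11.5 in pKO2, against 18.7 and 16.2. Hnrnpf, an RNA-binding protein gene, was at 151 and 66.1 CPM, against 163 and 125. The other lower ones by the naming rule were Mkrn1 and Enc1, with log2 differences of −1.22 and −1.20 in the pKO pair. The higher ones were Bpifa2, Ptx4 and Usp3, with 1.43, 1.18 and 1.12, and Cfc1, described above. Besides Cfc1, the other named gene past 2-fold in opposite directions was Slx1b, a structure-specific nuclease subunit, at 9.37 and 28.8 CPM in the WT pair and at 32.5 and 14 in the pKO pair. With 4 libraries and 4 combinations of group and number there is no residual, so a difference between the pairs cannot be tested for any gene. An exact permutation test of 2 libraries against 2 cannot give a p under 0.333.

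Patterns most like those of T and Eef1a1 were sought over the 7 libraries by Pearson correlation of log2 CPM. For T the closest were Rplp0, Zfand6, Rab18, Lmnb1 and Rbm47 (0.97 to 0.98), and for Eef1a1 Vps4b, Ranbp1, Hnrnpu, Marchf6 and Timm8b (each 0.99). Rab18, a small GTPase gene, was at 70.8 and 25.8 CPM in the WT pair and at 54.9 and 68.9 in the pKO pair. Timm8b, a chaperone of mitochondrial import, was at 56.2 and 8.40 CPM and at 58.8 and 18.1. These are descriptions over 7 points that share the same libraries, and no streak factor is among the 5 for T.

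Promoters are shown for 2 genes lower in both pairs, Eef1a1 (chr9:78481725-78481844, minus strand) and Rpl39 (chrX:37085223-37085342, minus strand), and for 2 lower in the WT pair only, T (chr17:8434303-8434422, plus strand) and Mesp1 (chr7:79793591-79793710, minus strand). Each is the 120 bases before the gene's start in RefSeq (GRCm38.p6), written 5′ to 3′ on the strand of the gene, so that the letters behind the motif counts can be seen. Capitals mark matches on either strand to any of 5 motifs. The TATA box has the letters TATAAA, and the CCAAT box is spelled as named. The GC box is searched as GGGCGG. The E-box is searched as CACGTG. The core of T-box sites is searched as AGGTGT.
Eef1a1: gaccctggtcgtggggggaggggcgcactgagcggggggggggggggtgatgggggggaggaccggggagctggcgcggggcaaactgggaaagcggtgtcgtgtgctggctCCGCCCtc
Rpl39: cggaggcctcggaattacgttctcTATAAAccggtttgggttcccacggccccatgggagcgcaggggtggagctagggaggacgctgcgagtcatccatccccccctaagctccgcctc
T: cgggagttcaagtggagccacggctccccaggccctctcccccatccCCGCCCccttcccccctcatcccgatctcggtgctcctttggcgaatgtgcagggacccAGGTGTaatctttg
Mesp1: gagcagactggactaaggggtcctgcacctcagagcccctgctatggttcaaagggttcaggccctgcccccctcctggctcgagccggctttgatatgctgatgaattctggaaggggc
In windows of 300 bases around the start, TATAAA occurred in 13.4% of the 82 promoters matched for genes lower in both pairs. It occurred in 11.6% of the 129 matched for genes lower in the WT pair only. Over all features at 20 CPM or more, it occurred in 6.59% of the 3657 matched. AGGTGT occurred in 12.2%, 14.7% and 10.2% of these sets, in the same order, so neither motif was particular to a single class. CCAAT occurred in 36.6%, 40.3% and 39.7% of the 3 sets. Only 78.5% of all features and 74.1% of those lower in the WT pair only had a promoter in the table, so this check of the classes is void, and a match is a description of letters, not of a site.

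A fit over all 7 libraries with the title group and the number as terms called 62 of 10265 genes in edgeR's quasi-likelihood test at a Benjamini-Hochberg adjusted p under 0.05, of which 57 were lower (0.555%) and 5 higher (0.0487%) in the libraries numbered 2. The unadjusted p was under 0.05 for 1355 genes. Of the 62, 49 were among the 102 features lower in both pairs and none among those apart in the WT pair only. This fit has 1 residual degree of freedom and was made on the values that chose the contrast, so nothing is read from it. DESeq2 gave 65 calls and limma-voom 7.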

How the data were processed

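Each library was made from polyadenylated RNA with a kit that reads transcript 3′ ends, per the labels' protocols. The deposited tables hold, per the file headers, expected counts, TPM, FPKM and lengths for each gene; the submitters' processing notes name RSEM and mm9, with versions and parameters not given in the sources used here. The FPKM values the authors deposited were not used. TPM values the authors deposited served only for an alternative on log2(TPM + 1). Reads come from transcript ends, so a division by length, as in TPM, does not suit them; expected counts were rounded and used.

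Of 24990 features, 23447 matched 1 RefSeq gene name (GRCm38, names and gene order only), 375 were merged genes, 1085 near-identical copies and 83 had no name. The filter of edgeR on low counts kept 10265 features. CPM used TMM factors, and log2 values a prior count of 2. Pair differences were taken over features with a mean of 20 CPM or more. A feature was apart in both pairs when each was past 2-fold, and in 1 pair only when the other pair was within 0.5 on the log2 scale or opposite. The edgeR fit (4.0.16, in R 4.3.3) took all 7 libraries with title group and number as terms. In simulated data of 10265 genes with this design it recovered 44% of 2-fold and 97% of 4-fold changes. The changed genes were drawn only from those with a mean of 20 CPM or more over all 7 libraries. Each was given the same change in both pairs, with dispersions estimated from these data. Recovery at lower levels, or where the pairs differ, was not simulated. Alternatives used limma 3.58.1 and DESeq2 1.42.0.

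Genes were named by rule: 11 stage and reference genes, then up to 10 with the largest log2 difference each way in both pairs and in the WT pair only, up to 5 each way in the pKO pair only, and up to 4 of highest CPM in each list. Genes outside this rule were picked with their values in view. The comparison, the members and the lists were chosen with earlier results of these data known. Of 722 list entries 705 matched and 585 were tested. A few genes that the rules select are not reported here.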

Additional observations from a re-analysis of the deposited data

Results flagged for a closer look

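For 11 of the 49 genes named in every library, the pairs went opposite ways, with counting intervals of both ratios that exclude 1. Many of the 49 were named by these same ratios, so the count and its directions follow in part from the naming rule. The same count was not made over all features. With 1 library per group and number, the difference between the pairs was not tested. Of these, 9 were lower in WT2 than in WT1 and higher in pKO2 than in pKO1. The WT log2 difference minus the pKO log2 difference was −4.43 for Cfc1, −4.01 for Cer1, −3.93 for Lhx1, −3.66 for Mesp1, −3.42 for Pcdh7, −3.33 for Frzb, −3.05 for T, −2.41 for Gsc and −0.95 for Eomes. The other 2 were higher in WT2: Chd9 with 1.89 and Slx1b with 2.70.

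The library pInv is outside the pairs. Its genes of chromosome 8 lay a median of 0.46 above the median of the other libraries on the log2 scale. By the same measure WT2 stood at 0.47, and the remaining libraries between −0.19 (Ctrl) and 0.06 (pKO1).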

How the results depend on the processing

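No paired analysis was possible because the replicate number, which would be the block, is itself the factor compared. That holds for a block on the replicate number only. Pairing by title group was possible, and the title group is a term of the edgeR fit. The 4 libraries alone with that term, which pairs WT1 with WT2 and pKO1 with pKO2, gave 47 calls (42 lower, 5 higher). Counts of features apart in both pairs (104), in the WT pair only (347) and in the pKO pair only (28) moved with the level minimum and the fold. At 5 CPM they were 250, 896 and 211, with no minimum 385, 1289 and 459, at 1.5-fold 421, 1166 and 238, and at 3-fold 27, 49 and 4. With the other pair allowed up to 2-fold, 545 were apart in the WT pair only and 59 in the pKO pair only. With no minimum the correlation of the pairs was 0.308. The chromosome 8 median of the WT pair was 0.41 by total counts and 0.33 by log2(TPM + 1), and that of chromosome 11 was 0.32 and 0.23; the median of all features moved with it, from 0.05 to −0.07 and −0.14. The edgeR count of 62 became 7 with limma-voom, 0 with limma on log2(TPM + 1) (1069 at an unadjusted p under 0.05), 10 with DESeq2 size factors and 487 with no filter. Leaving out 1 library gave 73 to 2023 calls, with 460 without WT2 and 2023 without pKO2, where the lone library of an arm is assumed to vary like the others. These fits held no group term, since the fit over all 7 libraries has only 1 residual degree of freedom. They therefore differ from the fit with 62 calls in the model as well as in the library removed. The nearer baseline, the 4 libraries with no group term, gave 70 calls (67 lower, 3 higher). The causes of these changes were not tested. Pair classes need all 4 libraries, so they have no value with 1 library left out. Under 4 other scalings, 385 of 392 values of named genes stayed within the 95% counting interval, and none past 2-fold changed sign. Of 248 list medians under these scalings, 235 moved by less than 0.2 on the log2 scale, and none of at least 0.5 in size changed sign. With a prior count of 0.5, the WT median of the lateral plate list went from −1.64 to −2.02 and that of the nascent mesoderm list from −1.86 to −2.17. The TMM factors off chromosomes 8 and 11, the omission of those chromosomes, the restriction to features with 1 RefSeq gene and all alternatives for chromosome and list medians were chosen after seeing the data. Low counts limit genes near 20 CPM, and 1 library per group and number limits every difference between the pairs.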
